A study of Mus musculus with 6 samples.

Results

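RPL22-STAMP editing was described gene by gene in 3 of the 6 libraries of the series, bulk RNA-seq of mouse cortical neurons in primary culture that expressed this fusion. Of 31053 genes listed in each library, the 8688 with an EPR (edits per read) above 0 in all 3 libraries were kept and ranked by the median of their 3 within-library ranks. These genes were chosen by, and ordered on, the EPR values themselves, so levels, classes and list positions are given as descriptions, without a test. Only readings taken in a library that had no part in setting a class are independent of the choice.

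Ribo-STAMP fuses a ribosomal protein to rAPOBEC1, an enzyme that deaminates C to U in RNA, so that RNA bound by tagged ribosomes collects edits that a sequencer reads as C-to-T changes. RPL22 is a protein of the large ribosomal subunit and is also the handle used in RiboTag mice to pull down ribosomes. EPR divides the edits of a gene by the reads of the same gene, and the study uses it as a readout of translation that is scaled to RNA level within a library.

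The neurons came from E18 C57BL/6J embryos without a transgenic allele, were given floxuridine at DIV 3 and an AAV at DIV 6, and were collected at DIV 14. The virus carried the mouse *Rpl22* open reading frame joined to the N terminus of APOBEC1 under a Tet-On promoter, and all 3 libraries had Dox at 1 μg per ml for 48 h. The Tet activator was driven by the synapsin promoter, which is active in neurons, and libraries were made from poly(A) RNA of the whole culture. Fewer edited cells and fewer edits per edited cell therefore cannot be told apart. No library from neurons without the virus was used here, so the C-to-T background was not measured. The replicates are called biological in one place and technical in another by the study, and the spread given here may be either. The reads behind each EPR are unknown, so no counting error is given. A value of 0 can mean no edits or no reads, and a gene with few reads can only be at 0 or high.

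Marker genes of cell types are described in the same EPR values. EPR is already divided by reads, so these values cannot check which cell types were present or in what share. All 15 neuronal markers had an EPR above 0 in every library, and their median percentile was 72.9, where a percentile is the position of a gene among the 8688 from lowest to highest EPR. They ran from *Camk2a*, a kinase subunit of excitatory synapses, at 98.1 down to *Tubb3*, a neuronal tubulin, at 20.3. All 12 endothelial and mural markers failed to reach an EPR above 0 in 3 libraries, and 11 of them were at 0 in all 3. Of 12 microglial markers 1 was measured throughout, meaning here and below an EPR above 0 in all 3 libraries. Another 6 were at 0 in all 3 libraries, among them *Tmem119*, *P2ry12* and *Csf1r*. Of 15 oligodendrocyte markers, *Olig2*, *Cnp* and *Mbp* were measured throughout and 9 were at 0 in all 3. Of all listed genes, 61.3% were at 0 in all 3 libraries and 28% were above 0 in all 3. Zeros in all 3 were therefore not more frequent among microglial or oligodendrocyte markers than among all listed genes. Astrocyte genes stood apart from the other non-neuronal sets. Of 15 astrocyte markers 11 were measured throughout and none was at 0 in all 3, with a median percentile of 83.6. The summed EPR of the astrocyte markers was 0.209, 0.338 and 0.455 in replicates 1, 2 and 3, and that of the neuronal markers was 0.308, 0.384 and 0.385. Microglial markers summed to 0.140, 0.0970 and 0.0796, and oligodendrocyte markers to 0.0856, 0.104 and 0.0841. Sums include markers at 0 in a library, such as the astrocyte marker *S100b* at 0, 0.0217 and 0.0606. Single genes can make most of a sum. *C1qc* gave 0.136 of the microglial sum in replicate 1 and *C1qa* gave 0.0714 of it in replicate 3. *Pdgfra* gave 0.0541 of the oligodendrocyte sum in replicate 1. *Aqp4*, the water channel of astrocytes, had an EPR of 0.0236, 0.0654 and 0.0678, and *Slc1a3*, a glial glutamate transporter, had 0.0403, 0.0292 and 0.0381. *Apoe*, an astrocytic lipid carrier, was at the other end with 0.00209, 0.00397 and 0.00485. The part of astrocytes in any value below was not tested.

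The 3 libraries shared the order of the genes in part, and replicate 2 measured more of them. EPR was above 0 for 10033, 11195 and 9892 genes in replicates 1, 2 and 3. The median EPR of the 8688 genes was 0.00903, 0.0127 and 0.0112, a mean of 0.0110 ± 0.00185 (SD, n = 3), so about 1 edit stood against 100 reads. The 95th percentile of EPR was 13.5, 14.1 and 16.3 times the 5th. Across genes, Spearman's rho was 0.647 between replicates 1 and 2, 0.664 between 1 and 3 and 0.702 between 2 and 3 (8688 genes, not independent of each other). The median gene differed between a pair of libraries by 10.8 to 12 percentile points. Replicate 1 was the library farthest from the middle value for 36.5% of genes, replicate 2 for 32.3% and replicate 3 for 31.1%. Genes outside the set were mostly at 0 throughout, with no edits or no reads: 19048 listed genes (61.3%) were at 0 in every library, 1578 were above 0 in 1 library and 1739 in 2. Of the 1739, replicate 3 was the library at 0 for 834, replicate 1 for 713 and replicate 2 for 192. In the libraries where they were above 0 these genes had a median percentile of 41.7, 46.2 and 49.5, so the filter took genes from along the order and not from its low end alone.

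**Figure D1:**
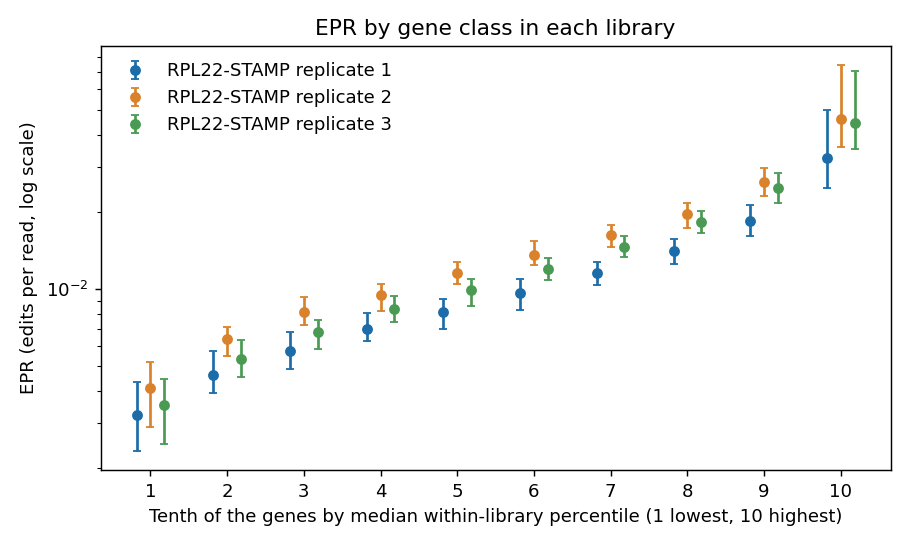
EPR (log scale) of the 8688 genes in 10 equal groups of the median within-library percentile, lowest to highest. Points are medians of a group in 1 RPL22-STAMP library and bars are quartiles. EPR rises over groups 1 to 9 and most steeply to group 10, from 0.0184, 0.0261 and 0.0247 to 0.0325, 0.0461 and 0.0446 in replicates 1, 2 and 3.

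The order was described in classes of 869 genes each, the top, middle and bottom 10% of the order. In the top class, with a median percentile of 88.7 or more, the median EPR was 0.0325, 0.0461 and 0.0446 in the 3 libraries. In the middle class, between 44.5 and 53.7, it was 0.00883, 0.0125 and 0.0109. In the bottom class, at 13.3 or less, it was 0.00324, 0.00411 and 0.00352. At the upper border *Rexo2*, just inside, had an EPR of 0.0170, 0.0334 and 0.0306 and *Dennd5b*, just outside, had 0.0237, 0.0318 and 0.0279. At the lower border *Eci2*, inside, had 0.00392, 0.00392 and 0.00758 and *Thoc3*, outside, had 0.00392, 0.00480 and 0.00536. The values on both sides of either border overlap.

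Replicate spread differed between the classes and depended on the scale. In ranks the top class was the tightest. The range of a gene's percentile over the 3 libraries had a median of 3.65 points there (quartiles 1.22 and 8.91), 28 points in the middle class (16.6 and 43.4) and 15.9 in the bottom class (8.16 and 29.8). Of top genes 829 (95.4%) lay above percentile 50 in all 3 libraries, and of bottom genes 767 (88.3%) lay below it in all 3. In the middle class 155 genes (17.8%) moved by over 50 points, against 30 in the top class, 87 in the bottom class and 1066 (12.3%) of all 8688. Ranks have little room to move at the ends of the order, and the EPR itself gave another picture. With each library divided by its median, the highest of a gene's 3 values was 1.60 times the lowest in the top class, 1.74 times in the middle and 2.46 times in the bottom class (medians over genes). Of 10 equal groups along the order, the ninth had the smallest EPR spread, at 1.48.

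**Figure D2:**
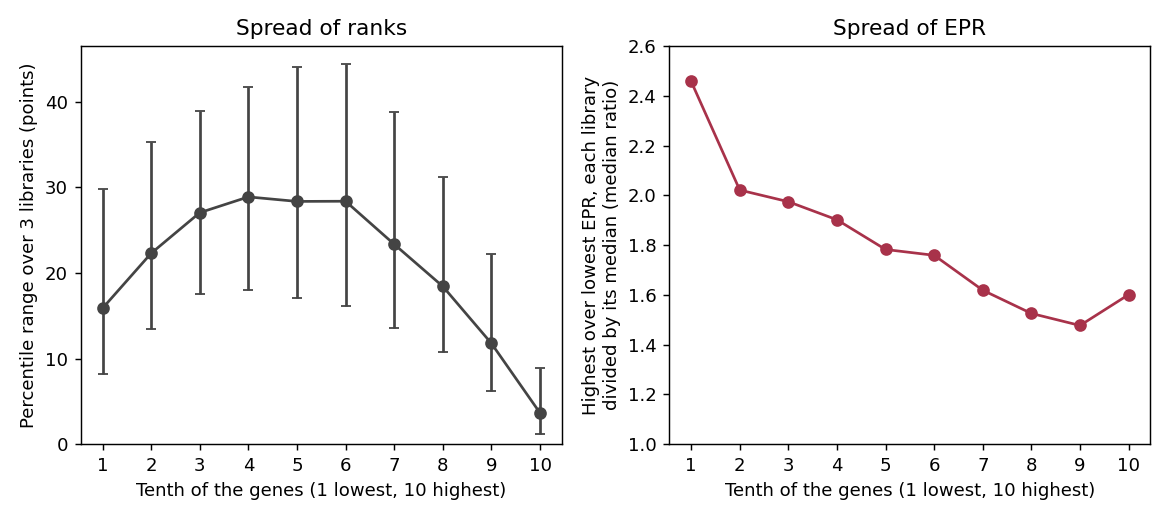
Left, range of a gene's percentile over the 3 RPL22-STAMP libraries by group of 10% of the order (points, median; bars, quartiles); right, median over genes of the highest divided by the lowest EPR, with EPR taken relative to the library median. The rank range is widest in the middle, at 28.9 points in group 4, and narrowest in group 10 at 3.65, whereas the EPR ratio falls from 2.46 in group 1 to 1.48 in group 9 and is 1.60 in group 10.

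Classes were then set from 2 libraries and read in the third, among the genes above 0 in the 2, with zeros ranked lowest. Top genes had a median percentile of 93.7, 93.8 and 93.6 in the library left out (replicates 1, 2 and 3), a mean of 93.7 ± 0.0800 (SD of 3 readings). Each library also helped to set the classes of the other readings, so this SD is not a spread of independent replicates. Middle genes had 49.6, 47.0 and 48.8, and bottom genes had 19.9, 14.4 and 18.3. The top class fell into the top 10% of the third library for 67.0%, 69.4% and 68.0% of its genes, where 10% of all ranked genes do. The bottom class fell into the bottom 10% for 18.2%, 35.5% and 20.4%. Ranked genes at 0 in the third library numbered 713 of 9401, 192 of 8880 and 834 of 9522, so zeros took up most of the bottom 10% in replicates 1 and 3. Zeros made up 9.26%, 2.14% and 13.9% of the bottom class and 7.66%, 2.70% and 9.14% of the top class. In replicate 2, where zeros were fewest, a place in the top 10% carried over more often (69.4%) than a place in the bottom 10% (35.5%). In replicates 1 and 3 the zeros limited how many bottom genes could carry over, so the classes cannot be compared there. Of bottom genes 88.7% to 91.6% stayed below percentile 50.

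**Figure D3:**
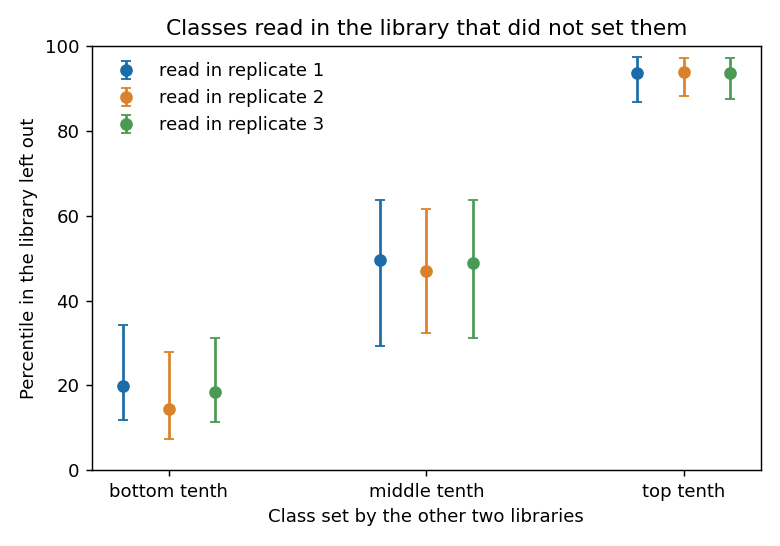
Percentile in the left-out RPL22-STAMP library (points, median; bars, quartiles) of the bottom, middle and top 10% set by the other libraries. The 3 top medians lie between 93.6 and 93.8, the middle ones between 47.0 and 49.6 and the bottom ones between 14.4 and 19.9.

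The very highest EPR belonged to genes that share sequence. EPR exceeded 1, meaning more edits than reads were assigned, in all 3 libraries for 23 genes, which is 0.265% of the 8688. Of these 23, 19 had over 50% of their exon bases in common with a second listed gene on their strand or over 50% of their transcript windows of 50 bases found exactly elsewhere in the genome. Among all 8688 genes these shares were 0.599% and 3.44%, and in the top class they were 4.72% and 11%. The aligner was allowed up to 10 locations per read, and how reads of shared sequence were counted is not given in the sources used here. The part of shared sequence in these values was not tested.

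Pairs of near-identical coding sequences show the size of these differences, and stretches of 60 bases are printed from GENCODE mouse transcripts (GRCm38), with bases that differ within a pair in capitals. The first pair is *Rps27rt*, a retrocopy on chromosome 9 (114982366 to 114982739), and *Rps27*, a small-subunit ribosomal protein gene on chromosome 3 (90212522 to 90213651), which are identical over all 255 coding bases. The second pair is *Amd2* (chromosome 10, 35708675 to 35711892) and *Amd1* (chromosome 10, 40287458 to 40302186), which encode S-adenosylmethionine decarboxylase of polyamine synthesis and differ at 1 of 1005 coding bases. The third pair is *Dynlt1c* (chromosome 17, 6601671 to 6609774) and *Dynlt1b* (chromosome 17, 6430112 to 6436296), dynein light chain genes that differ at 1 of 342.
Rps27rt, coding bases 1 to 60: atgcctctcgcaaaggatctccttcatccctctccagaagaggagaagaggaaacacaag
Rps27, coding bases 1 to 60: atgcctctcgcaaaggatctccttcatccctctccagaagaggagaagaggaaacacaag
Amd2, coding bases 766 to 825: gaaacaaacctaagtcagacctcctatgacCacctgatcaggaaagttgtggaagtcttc
Amd1, coding bases 766 to 825: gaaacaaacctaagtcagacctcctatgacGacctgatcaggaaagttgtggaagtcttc
Dynlt1c, coding bases 1 to 60: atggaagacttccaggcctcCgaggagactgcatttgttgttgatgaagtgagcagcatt
Dynlt1b, coding bases 1 to 60: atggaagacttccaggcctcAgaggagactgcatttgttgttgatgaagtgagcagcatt

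The 2 members of each pair were far apart in EPR in every library. *Rps27rt* had an EPR of 0.0625, 0.250 and 0.333 and *Rps27* had 0.00341, 0.00690 and 0.0117, ratios of 18.3, 36.2 and 28.5. *Amd2* had 0.429, 0.952 and 0.933 and *Amd1* had 0.0124, 0.0112 and 0.0122, ratios of 34.5, 85.3 and 76.8. *Dynlt1c* had 1.75, 1.86 and 1.40 and *Dynlt1b* had 0.0727, 0.0541 and 0.0517, ratios of 24.1, 34.4 and 27.1. A further pair, the processed copy *Nutf2-ps1* and the nuclear transport gene *Nutf2*, was identical over 384 coding bases and had ratios of 147, 65.7 and 138. These pairs were chosen after their values were seen. The reads behind the values are unknown, so a ratio may rest on few reads of the copy, which was not tested.

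Mitochondrially encoded mRNAs occupied both extremes. *mt-Co2* and *mt-Co3* (subunits of cytochrome oxidase), *mt-Atp6* (ATP synthase) and *mt-Nd4l* (complex I) held the 4 highest places. *mt-Co2* had an EPR of 146, 77.5 and 126, and *mt-Nd4l* had 97, 82.2 and 67.1. All windows of these 4 transcripts have an exact copy elsewhere in the genome. *mt-Nd1*, *mt-Nd2*, *mt-Nd5* and *mt-Cytb*, with at most 8.08% of windows copied, lay between percentiles 11.4 and 13.3, and *mt-Cytb* had an EPR of 0.00479, 0.00517 and 0.00451. *mt-Nd6*, which lies on the opposite mitochondrial strand, had 0.000520, 0.000350 and 0.00104 and was the lowest of all 8688 genes. Of the 12 measured mitochondrial mRNAs, the 5 with little copying and no EPR above 1 had a median percentile of 11.9, against 35.7 for the 12.

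Other leading genes overlap neighbours. *Prrt2*, a presynaptic release protein gene, had an EPR of 42.5, 32.4 and 49.0 and shares 92.4% of its exon bases with Gm42742. *Adnp*, a chromatin-associated neuroprotective factor, had 9.0, 5.21 and 10.5 and shares 82.1%, and *Vps25*, an ESCRT-II subunit gene, had 8.75, 20.4 and 8.71 and shares 67.2% with *Ramp2*. *Cpne1*, a calcium-dependent phospholipid-binding protein gene, had 3.67, 31.0 and 15.2 and shares 84.1%. Without overlap, wide copying or an EPR above 1, the leading protein-coding genes were *C1qtnf4*, *Ropn1l*, *Ano5*, *Macc1* and *Trappc9* (selection by at most 10% of windows copied, chosen after values were seen). *C1qtnf4*, a secreted C1q family protein gene, had 0.800, 0.0303 and 1.00, so its place rests on 2 libraries. *Pcp4*, a calmodulin-binding peptide gene, was steadier at 0.162, 0.239 and 0.165. *Fkbp1b*, which binds the ryanodine receptor, had 0.127, 0.123 and 0.155, and *Ctxn1*, a neuronal membrane protein gene, had 0.0868, 0.135 and 0.125. These 3 genes were above the top border in every library.

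Positions of functional lists are described next, by how many measured members lay in the top 20% (median percentile of 80 or more, 18% of all 8688 genes) and in the bottom 20% (below 20, 17%). Because EPR both set the order and is the value described, these shares are not a test of any list.

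Genes of the presynaptic terminal sat high. All 57 listed synaptic vesicle and active zone genes were measured, with a median percentile of 76.9 (74.8, 76.6 and 77.5 in the 3 libraries), 22 in the top 20%, 3 in the bottom 20% and 42 above percentile 50 in every library, as were 2820 (32.5%) of all 8688 genes. *Cplx1*, which clamps and promotes SNARE fusion, had an EPR of 0.0583, 0.0511 and 0.0661. *Syt1*, the calcium sensor of fast release, had 0.0360, 0.0388 and 0.0412, and *Syn1*, which tethers vesicles, had 0.0286, 0.0374 and 0.0342. *Slc17a7*, the vesicular glutamate transporter, hardly moved in the order, with a percentile range of 0.357 and an EPR of 0.0306, 0.0411 and 0.0402. Paralogs parted from each other. *Syt7* stood at percentile 94.4 and *Syt4* at 39.2, *Syn1* at 92.0 and *Syn3* at 18, and *Unc13a*, a vesicle priming gene, at 90.4 and *Unc13b* at 63.4. Of these, *Syn3* was poorly fixed, with a range of 56.6 points. The lowest were the liprin genes *Ppfia2* (14.1) and *Ppfia3* (4.56), active zone scaffolds, and *Ppfia3* had an EPR of 0.00247, 0.00583 and 0.00178.

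Postsynaptic genes lay above the middle. The 33 measured genes of scaffolds and signalling had a median percentile of 65.3, with 12 in the top 20% and 1 in the bottom. *Camk2a* had an EPR of 0.0602, 0.0926 and 0.0869, and its percentiles differed by 0.184 points. *Nrgn*, a calmodulin-binding protein of spines, had 0.0573, 0.0784 and 0.0688, and *Shank3*, a scaffold of spines, had 0.0362, 0.0592 and 0.0679. In all 3 genes replicate 1 was the lowest library, as it was in the median of all genes. The 4 CaMKII subunits were ordered *Camk2a* (98.1), *Camk2b* (82.8), *Camk2g* (63.4) and *Camk2d* (59.2), of which the last 2 lay within each other's range over libraries. *Dlg4*, which encodes PSD-95, stood at 73.5 with a range of 1.12 points, and the guanylate-kinase-associated proteins *Dlgap1* to *Dlgap4* stood between 23.6 and 38.4. *Grip1*, a PDZ scaffold for AMPA receptors, was lowest at 16.0, but its 3 values of 0.0140, 0.00590 and 0.00156 differed by 71.3 points.

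Channels and receptors ranged widely within families. The 23 voltage-gated sodium and calcium channel genes had a median percentile of 71.6, and the pore-forming genes *Cacna1d* (92.8), *Cacna1a* (85.8), *Scn8a* (83.7) and *Scn1a* (83.2) were above the auxiliary genes *Cacnb1* (20.1) and *Cacnb2* (10.1), while the auxiliary gene *Cacnb4* stood at 88.7. The 12 measured genes of GABA-A receptor subunits and gephyrin had a median of 63.4, with *Gabra3* at 91.8, *Gabra5* at 89.2 and *Gabrd* lowest at 17.7. The 21 measured genes of ionotropic glutamate receptor subunits and auxiliary proteins together had 57.5, from *Nptn* (95.9) to *Cacng4* (11.8). Among the subunits, *Gria3* stood at 77.6, *Gria1* at 69.2, *Grin2b* at 37.1 and the obligatory NMDA subunit *Grin1* at 31.5. The 44 potassium channel genes had 52.0 (64.2, 50.7 and 48.9 in the 3 libraries), from *Kcnj6*, the GIRK2 channel (97.4; EPR of 0.0594, 0.0753 and 0.0618), to *Kcns2* (7.12). The 16 interneuron identity and GABA synthesis genes had 49.0, and 52.8, 35.1 and 53.7 in the 3 libraries. *Gad1* and *Gad2*, which make GABA, stood at 67.8 and 62.2. The 32 measured clustered protocadherin genes, recognition molecules of neurites, had 51.8, and their median range of 38.6 points was the widest of any list.

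Cytoskeletal genes lay slightly above the middle. The 38 kinesin, dynein and dynactin genes had a median of 58.7, with the light chains *Dynll1* (96.5) and *Klc2* (95.4) near the top and the heavy chain *Dync1h1* at 22.0. The 32 tubulin, microtubule-associated and neurofilament genes had 55.7. *Tuba1c*, 59.8% of whose windows are copied, had an EPR of 4.57, 4.89 and 1.5, *Tuba1b* had 0.0323, 0.0394 and 0.0463, and *Tuba1a*, the main tubulin of developing neurons, had 0.00743, 0.00953 and 0.00846. *Nefl*, the light neurofilament gene, stood at 91.7, *Nefm* at 47.3 and *Nefh* at 20.2, and the ranges of the 3 over libraries did not overlap.

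**Figure D4:**
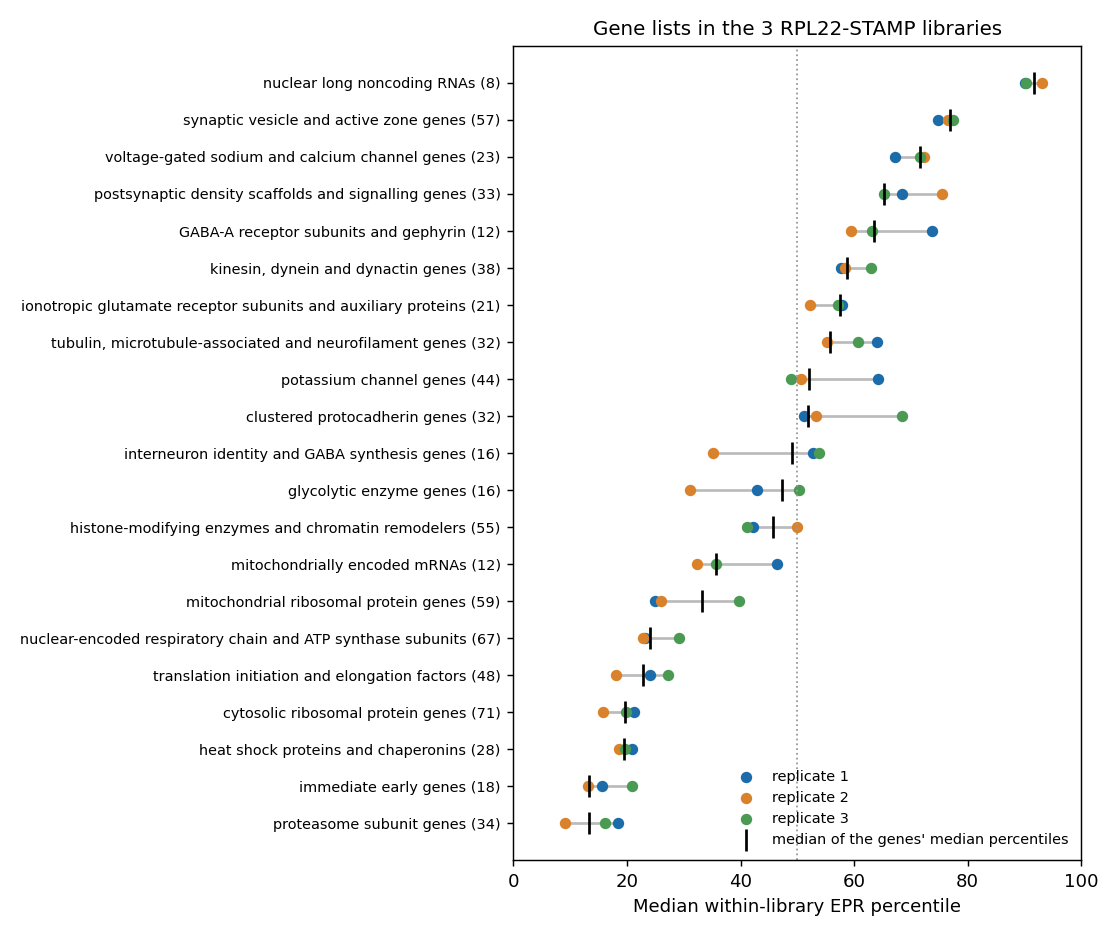
Median within-library EPR percentile of 21 gene lists (number of measured genes in brackets). Coloured points are the 3 RPL22-STAMP libraries, black bars the median of the genes' median percentiles and the dotted line the middle of the order. Synaptic vesicle genes lie at 74.8 to 77.5 and proteasome genes at 9.0 to 18.5.

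Proteasome and chaperone genes lay low. The 34 measured proteasome genes had a median percentile of 13.3, with 23 in the bottom 20% and 29 below percentile 50 in every library, as were 2738 (31.5%) of all genes. All 6 ATPases of the base, *Psmc1* to *Psmc6*, lay between 5.22 and 16.7, and *Psmc2* had an EPR of 0.00234, 0.00381 and 0.00292. The exception was *Sem1*, a small lid subunit, at 84.9 with 0.0262, 0.0245 and 0.0260. The 28 chaperone genes had 19.4, with 14 in the bottom 20%. The chaperonin gene *Cct4* had 0.00300, 0.000636 and 0.00205, and *Hspa5*, the ER chaperone BiP, had 0.00245, 0.00315 and 0.00381. *Dnajc5*, which encodes the synaptic vesicle chaperone CSP-alpha, stood at 84.9.

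The machinery of translation was itself low. The 48 initiation and elongation factor genes had a median of 22.8, with 23 in the bottom 20% and 4 in the top. *Eif3d*, a cap-binding subunit of eIF3, had an EPR of 0.00167, 0.00262 and 0.00134. *Eif1ax*, which takes part in start codon selection, had 0.0775, 0.0888 and 0.0888, and *Eif5a*, an elongation factor, had 0.0231, 0.0350 and 0.0303. The 71 of 82 cytosolic ribosomal protein genes that were measured had 19.7, with 38 in the bottom 20%. Copying is common in this family, and the 29 of them without wide copying or overlap had 16.4. The lowest was *Rps9*, with 0.000938, 0.00188 and 0.0113 and a range of 50.5 points set by replicate 3, and *Rps12* had 0.000979, 0.00325 and 0.00188. Near the top, *Rpl13a* had 0.0881, 0.102 and 0.0909. It shares 29.4% of its exon bases on its strand, and 27% of its windows are copied.

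*Rpl22* itself had an EPR of 0.00544, 0.00795 and 0.00628, at percentile 24.4 with a range of 2.94 points. Its open reading frame is also part of the virus, and reads of the 2 sources cannot be told apart. Its paralog *Rpl22l1* stood at 26.2 with a range of 29.2. *Rps2* had 0.0162, 0.0222 and 0.0205 at 77.8, and *Rpl10a* stood at 60.9 with a range of 35.0, and over 50% of the windows of either are copied. *Apobec1*, the gene of the endogenous enzyme, was listed at 0 in all 3 libraries.

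Energy genes were divided. The 67 nuclear-encoded respiratory chain and ATP synthase genes had a median of 24.1, with 26 in the bottom 20% and 7 in the top. *Ndufa5*, a complex I subunit, had an EPR of 0.000872, 0.00422 and 0.00202, whereas *Cox8a* and *Cox6c*, of cytochrome oxidase, stood at 98.0 and 97.7. *Cox6c* had 0.0541, 0.0800 and 0.0714 and a range of 0.173 points. The 59 mitochondrial ribosomal protein genes had 33.3, and the 16 glycolytic genes had 47.2 (43.0, 31.1 and 50.3 in the 3 libraries). The 12 glycolytic genes without wide copying, overlap or an EPR above 1 had 39.0. The 55 genes of histone-modifying enzymes and chromatin remodelers had 45.6, and the 53 without wide copying, overlap or an EPR above 1 had 41.2. They ran from *Arid2*, a subunit of the PBAF remodeler, at 96 to the acetyltransferase gene *Kat5* at 0.420.

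Immediate early genes, which neurons transcribe within minutes of activity, were low. Of 26 listed, 18 were above 0 in all 3 libraries, as were 28% of all listed genes, with a median percentile of 13.3 and 13 in the bottom 20%. *Arc*, a regulator of AMPA receptor traffic, had an EPR of 0.00414, 0.00433 and 0.00405, and *Bdnf*, a neurotrophin, had 0.00260, 0.00411 and 0.00346. *Egr1*, a transcription factor, had 0.00346, 0.00514 and 0.00479. These 3 had ranges of 6.25, 2.44 and 4.91 points. *Fos*, at 0.00406, 0.00305 and 0.00870, and *Dusp1*, a MAP kinase phosphatase gene, at 0.00209, 0.00351 and 0.0150, had ranges of 34.1 and 61.2. None of the 18 was in the top 20%, and *Homer1*, at 60.5, was the highest.

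Noncoding RNAs were more frequent at the top of the order than at its bottom. Of the 869 top genes 44 were lincRNA and 17 antisense genes, against 2 and 1 in the bottom class. The 100 lincRNA genes measured, of 5459 listed, had a median percentile of 83.9, with 56 in the top 20%, and the 42 antisense genes, of 2816 listed, had 83.8. A gene with few reads enters the set only with a high EPR, and the reads of these genes are unknown. Of 10 genes found by name from a list headed nuclear long noncoding RNAs, 8 were measured, with a median of 91.7. The annotation gives a coding sequence (median of 264 bases) to at least 1 of the 8. *Meg3*, an imprinted nuclear RNA, had an EPR of 0.0410, 0.0725 and 0.0660. *Miat* had 0.0336, 0.0438 and 0.0381, and *Malat1*, an RNA of nuclear speckles, had 0.0237, 0.0390 and 0.0294. *Kcnq1ot1*, an antisense RNA that silences imprinted genes in cis, was the exception at 20.8 with a range of 35.4. *Syn1*, at 0.0286 to 0.0374 over the libraries, overlapped the values of *Miat* and *Malat1* and lay below those of *Meg3*.

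**Figure D5:**
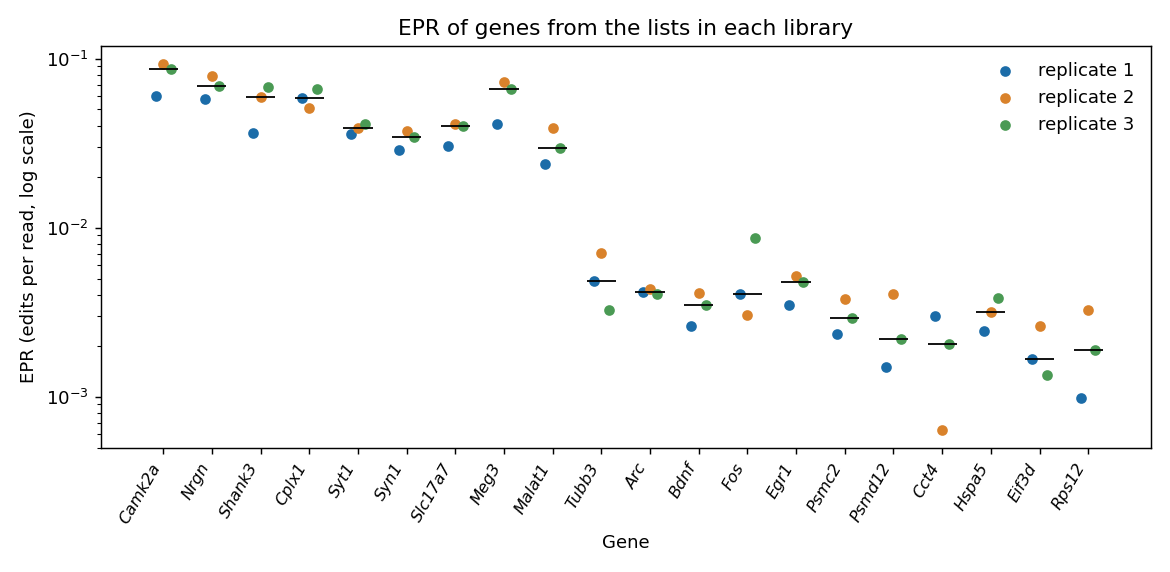
EPR (log scale) of 20 genes from the lists in each RPL22-STAMP library (points), with the median as a black line. The plotted synaptic genes and *Meg3* and *Malat1* lie at 0.0237 or higher in every library, and the plotted proteasome, chaperonin, translation and immediate early genes lie at 0.00870 or lower. The genes were picked with their values known, and members of the same lists that are not plotted, such as *Sem1*, *Eif1ax* and *Ppfia3*, lie on the other side.

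At the middle and the bottom of the order single genes were less well fixed. Of the 8 genes nearest to the middle percentile of 50, *Ablim1*, an actin-binding LIM protein gene, had an EPR of 0.00901, 0.0124 and 0.0117 and a range of 3.59 points, and *Arl6*, a ciliary GTPase gene, had 0.0153, 0.00533 and 0.0112 and a range of 63.0. The narrowest between percentiles 40 and 60 was *Adgrb1*, an adhesion receptor gene, at 0.0105, 0.0148 and 0.0132 with a range of 0.368. After *mt-Nd6*, the lowest single-locus protein-coding genes were *Thyn1*, *Ptcd2*, *Spata7*, *Sf3a3*, *Prkcsh* and *Med4*. *Spata7*, a ciliary gene, had 0.00143, 0.00112 and 0.00124 and *Sf3a3*, a spliceosome gene, had 0.00222, 0.000939 and 0.00128, and both were low in every library. *Prkcsh*, the beta subunit of glucosidase II, had 0.00120, 0.000758 and 0.0108, so replicate 3 lay near the middle. The widest range, 95 points, belonged to *Daam2*, a formin gene, with 0.0351, 0.00103 and 0.00395, followed by *Fyco1* and the cyclooxygenase gene *Ptgs2*. In 5 of the 6 widest genes replicate 1 was the highest library and replicate 2 the lowest.

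Transcript features were set beside the order as correlations across genes, which share their libraries and are not independent. The length of the 3′ UTR (8533 genes) had the largest Spearman's rho with the median rank, 0.174, and 0.133, 0.184 and 0.130 in the 3 libraries. Coding length had a rho of -0.112, coding GC content 0.121, transcript length 0.0510 and transcript GC content 0.00812, of which the last was below 0 in 2 libraries. The relation to the 3′ UTR was not a straight one. The median length was 604 bases in the lowest 10% of genes, rose to 1689 in the eighth of 10 groups and was 1192 in the highest. The 20% of genes with the shortest 3′ UTRs had a median percentile of 36.1, and the 20% with the longest had 55.4.

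By chromosome, the 347 measured genes on X had a median percentile of 59.3, the highest of any nuclear chromosome, and the 339 on chromosome 12 had 43.4. Among X genes was *Eif2s3x*, a subunit of eIF2, at 97.1, with 93.1% of windows copied.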

How the data were processed

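Bulk RNA-seq was made from 3 samples with RPL22-STAMP by the authors, who removed adapters (cutadapt), mapped the reads to mm10 (STAR), called C-to-U edits with SAILOR and counted reads with featureCounts. They deposited 1 ratio per gene and library, EPR (edits per read), for 31053 Ensembl genes, without scaling between libraries. Edit and read counts were not used here, so the depth is unknown and no interval is given. The 3 RPL10A-STAMP libraries were not used.

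Percentiles were within-library ranks of EPR over the 8688 genes above 0 in all 3 libraries, and genes were ordered by the median of 3. Annotation, transcript lengths and overlaps came from GENCODE mouse release 21 (GRCm38), which lacked 42 of the listed genes. The transcript with the longest coding sequence was used. Copied sequence was the share of windows of 50 bases, every 10 bases, found exactly elsewhere in the genome. Log2(EPR + 0.01) was used in 1 alternative. Ranking and class code was tested on simulated data. Scripts ran in Python 3.11.15 with pandas 2.3.3, numpy 2.4.6 and scipy 1.17.1, and plots in matplotlib 3.10.9.

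The genes named by rule were the 12 highest, and, among nuclear protein-coding genes with EPR of at most 1 and no exon overlap (single-locus), the 12 highest, the 8 nearest the middle, the 12 lowest and the 6 with the widest and the narrowest ranges, then list ends and fixed genes (*Camk2a*, *Rpl22*, *Rpl22l1*, *Rpl10a*, *Rps2*, *Apobec1*). Other list members were named after their values were seen. Members and lists were chosen with earlier results of these data known. Alternatives covered the gene filter, class size, ranking, correlation, transcript choice and each library left out. Some genes that the rule names are not reported here.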

Additional observations from a re-analysis of the deposited data

How the results depend on the processing

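No paired analysis was possible because a single group of libraries was described. Of 119 alternative values, 88 moved by no more than the spread between libraries (for counts, by no more than 1.5 times), 28 moved further and 3 changed sign, and the cause was not tested. The 3 were the rho of transcript GC content, main value 0.00812, which was -0.0173 without exon overlaps, -0.0244 for genes above 0 in at least 2 libraries and -0.0303 to 0.0234 with a library left out.

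Leaving out a library leaves 2 values a gene, which by construction narrows the rank range. It then was 1.64 to 1.88 in the top 10%, 19.0 to 21.6 in the middle and 6.55 to 7.51 in the bottom. The mean rho between libraries was 0.628 to 0.686 with a library left out, lowest without replicate 3, and 0.753 or 0.849 as Pearson's r of log2 EPR or of log2(EPR + 0.01). For genes above 0 in at least 2 libraries the ranges were 4.59, 30.2 and 20.5 in the top, middle and bottom 10%. The top range was 4.17 without mitochondrial genes and EPR above 1, and 3.93 without exon overlaps, with held-out percentiles of 93.5 and 93.6. The filter on EPR above 1 used all 3 libraries, so the 93.5 is not independent of the library left out. With classes of 5% the top and bottom ranges were 1.44 and 13.7 and the held-out top percentile was 97. With classes of 20% they were 7.12 and 19.3, with held-out percentiles of 87.7 (top) and 22.1 (bottom). The order of the classes, top tightest and middle widest, was the same in each of these. Of the top 10%, 744 to 791 of 869 genes were kept under another ranking or without a library, and of the bottom 10% 602 to 693. Without copied or overlapping genes and those with an EPR above 1 (chosen after seeing the data), the median percentile was 16.4 for cytosolic ribosomal protein genes and 11.9 for mitochondrial mRNAs. The reads per gene are unknown, so the share of counting error in any of these ranges cannot be given.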
